A study of Mus musculus with 16 samples.

Results

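Gene expression 24 h after stroke was compared with that of naive mice over both genotypes of the study at once, so that 8 stroke arrays stood against 8 naive arrays. The comparison used all 16 arrays of the series and 19938 genes. The arrays were Affymetrix Mouse Gene 1.0 ST, hybridised with labelled cDNA from whole brain of 8-week-old male mice, 4 arrays per group. The groups were naive C57BL/6, C57BL/6 after stroke, naive mice labelled TNF knockout (TNFko), and mice of that label after stroke. Stroke was made by permanent middle cerebral artery occlusion (pMCAO), in which the artery stays closed until the tissue is taken. No sham operation was done in naive mice, so surgery and occlusion cannot be told apart. The labels name neither the TNF knockout allele nor its strain background, and they do not state that each array came from a separate animal. If several arrays shared an animal, the p-values measure no more than the spread between samples, which may be technical.

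Closing the artery starves its territory of oxygen and glucose. Dying neurons release damage signals, which microglia and astrocytes read through pattern recognition receptors, and both cell types then switch on NF-kB and STAT target genes. Chemokines and adhesion molecules recruit blood leukocytes through the vessel wall, first neutrophils and then monocytes, while interferon-stimulated genes, heat shock proteins and antioxidant enzymes are induced in and around the lesion. Whole brain mixes the lesion with tissue that kept its blood supply, so a change confined to the lesion reads smaller in such a sample than in the lesion itself.

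The deposited values are log2 expression levels. A change is the stroke level minus the naive level on that scale, so that a change of 1 is a doubling, and it is given ± SE from a limma fit with genotype as an additive term. A gene is said to have risen or fallen where its Benjamini-Hochberg adjusted p over the 19938 genes was below 0.05. The arrays matched their tissue label: the markers of neurons in general had a median level of 10.69, those of oligodendrocytes 9.41 and those of resting astrocytes 9.40, against 6.39 over all genes. Readings of different probe sets depend on their probes as well as on RNA, so such medians describe groups of genes and rank no gene against another. No detection p-values were used here, so whether a low reading lay above background is not known. In bulk tissue, fewer cells of a type and less RNA per cell cannot be told apart.

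The targeted gene was looked at first. Tnf, which encodes the cytokine tumour necrosis factor, read 5.01, 5.72, 5.08 and 5.41 in naive C57BL/6 mice and 5.64, 5.28, 5.67 and 5.68 in C57BL/6 mice after stroke. With the TNF knockout label it read 6.14, 6.46, 6.47 and 6.58 in naive mice and 6.75, 6.60, 6.99 and 6.88 after stroke. Every array labelled TNF knockout was thus above every C57BL/6 array, which goes against the label, although a probe set outside a deleted part would check nothing. These arrays are therefore called by their label throughout. Over both genotypes Tnf changed by 0.33 ± 0.10, which missed the threshold (limma, adjusted p = 0.0815).

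Over both genotypes 535 of the 19938 genes passed the threshold, 2.68%. Of these, 328 rose (1.65%) and 207 fell (1.04%). Of the increases 24 were at least 2-fold, and 0 of the decreases were. The 4-group fit of the same arrays called 334 genes in C57BL/6 mice alone (1.68%) and 128 in the arrays labelled TNF knockout alone (0.642%). The larger group sizes lowered the median SE of a change from 0.0994 within a genotype to 0.0712 over both.

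Of the changes of at least 2-fold, all but 1 had already passed within a genotype. Ccl12, a chemokine that attracts monocytes, read 4.27 to 5.04 (median 4.56) on the naive arrays and 7.56 to 8.64 (median 8.02) after stroke, a change of 3.45 ± 0.14 (adjusted p = 1.08e-12). Ccl3 rose by 3.32 ± 0.23 (adjusted p = 2.67e-08), from a range of 4.49 to 5.34 to one of 7.09 to 9.50. Lcn2, the siderophore-binding lipocalin 2 of reactive astrocytes, rose by 3.16 ± 0.22. For these 3 genes the stroke and naive ranges lay far apart. Other leading increases with separate ranges were Cxcl10, a chemokine for T cells, by 2.79 ± 0.21, and the immunoglobulin-like receptor gene Lilr4b by 2.02 ± 0.16. Hmox1, which degrades haem, rose by 1.71 ± 0.16. Ptx3, a secreted pattern recognition protein, followed with 1.64 ± 0.19, then Gpr84, which senses medium-chain fatty acids on myeloid cells, with 1.42 ± 0.14, and the interferon-stimulated Ifit1 with 1.35 ± 0.18.

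Pooling the genotypes added 273 genes (1.37%) that had passed in neither one alone, 121 higher (0.607% of all genes) and 152 lower (0.762%). These genes were chosen by the same values, so their counts and sizes are a description with no test of their own. The other 262 genes called over both genotypes were mostly increases. Of them, 58 higher and 7 lower passed in both genotypes, 111 higher and 41 lower in C57BL/6 only, and 38 higher and 7 lower only in the arrays labelled TNF knockout. Pooling thus supplied 152 of the 207 decreases but 121 of the 328 increases. The decreases it added were small, with a median of -0.27 (1.2-fold lower) and none past -0.52, and the added increases had a median of 0.33 (1.26-fold). The 58 increases that passed in both genotypes had a median of 0.83.

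**Figure D1:**
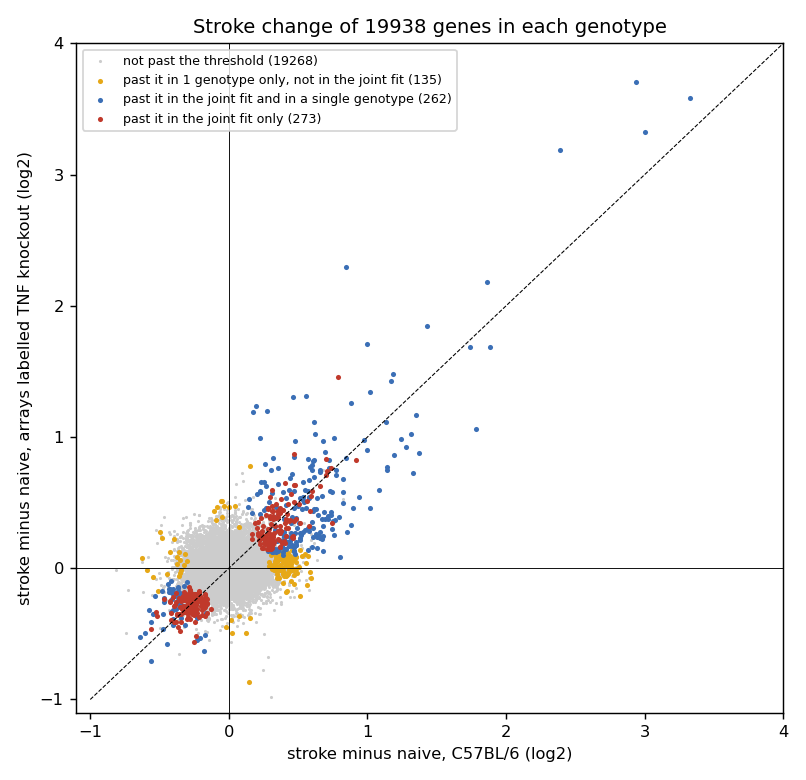
Stroke change of each of the 19938 genes in C57BL/6 mice (x axis, log2) and in the arrays labelled TNF knockout (y axis, log2), coloured by the fits in which the gene passed the threshold; the dashed line marks equal changes. The 273 genes that passed only in the joint fit lie close to the origin along the line of equal changes, and the 135 that passed in 1 genotype and not jointly lie nearer the axes. Both positions are largely fixed by how the genes were chosen.

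The genes added on the 2 sides also differed in level. The added decreases came from well expressed genes, with a median level of 7.95 and quartiles of 7.14 and 8.71, and 16 of the 152 had a mean below 6. The added increases had a median level of 6.16 with quartiles of 5.03 and 7.62, and 55 of 121 (45.5%) had a mean below 6. Over all genes the median level was 6.39, the quartiles were 4.76 and 7.87, and 44% lay below 6. Complete separation of the 8 stroke from the 8 naive arrays, met by 112 genes of all (0.562%), was met by 7 of the added increases and 17 of the added decreases. Each added gene changed in the same direction in both genotypes, which the way they were chosen largely fixes.

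A few promoters and a microRNA are printed here because they carry the motifs whose shares are given further on, and because their genes recur in the results. The promoters are those of Cxcl2 and Csf1 with an NF-kB motif, of Gbp7 and Cybb with interferon-stimulated response elements (ISRE), and of Cartpt with a cAMP response element and 3 metal response elements. Each runs from 250 bases before to 50 after the start of the gene, 5′ to 3′ on the gene's strand, from RefSeq on GRCm38.p6. Cxcl2 lies at chr5:90903649-90903948 (+), Csf1 at chr3:107760420-107760719 (-), Gbp7 at chr3:142530086-142530385 (+), Cybb at chrX:9469275-9469574 (-) and Cartpt at chr13:99900634-99900933 (-). Capitals mark the motif matches, which are matches of letters and not shown to be bound.
Cxcl2: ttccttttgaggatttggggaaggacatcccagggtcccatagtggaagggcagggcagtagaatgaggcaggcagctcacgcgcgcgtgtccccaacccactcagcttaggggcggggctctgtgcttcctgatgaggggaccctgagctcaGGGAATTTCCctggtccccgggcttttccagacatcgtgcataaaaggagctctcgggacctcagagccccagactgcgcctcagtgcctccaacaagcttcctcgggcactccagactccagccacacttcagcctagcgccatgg
Csf1: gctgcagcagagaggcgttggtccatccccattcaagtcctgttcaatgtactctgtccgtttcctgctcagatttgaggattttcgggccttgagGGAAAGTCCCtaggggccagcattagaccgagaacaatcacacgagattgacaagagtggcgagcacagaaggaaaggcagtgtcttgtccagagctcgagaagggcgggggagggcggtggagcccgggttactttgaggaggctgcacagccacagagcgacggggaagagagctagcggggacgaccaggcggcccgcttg
Gbp7: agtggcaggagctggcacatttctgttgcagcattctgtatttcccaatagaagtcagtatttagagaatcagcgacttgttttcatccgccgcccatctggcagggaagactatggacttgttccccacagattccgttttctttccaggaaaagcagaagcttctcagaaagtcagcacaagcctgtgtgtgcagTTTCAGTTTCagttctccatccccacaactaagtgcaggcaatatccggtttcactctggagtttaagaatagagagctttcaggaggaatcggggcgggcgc
Cybb: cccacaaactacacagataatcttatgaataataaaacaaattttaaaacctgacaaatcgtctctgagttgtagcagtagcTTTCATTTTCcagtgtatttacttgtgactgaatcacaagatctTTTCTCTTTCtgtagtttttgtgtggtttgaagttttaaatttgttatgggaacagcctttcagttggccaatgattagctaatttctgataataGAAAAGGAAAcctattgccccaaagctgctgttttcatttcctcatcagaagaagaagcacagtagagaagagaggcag
Cartpt: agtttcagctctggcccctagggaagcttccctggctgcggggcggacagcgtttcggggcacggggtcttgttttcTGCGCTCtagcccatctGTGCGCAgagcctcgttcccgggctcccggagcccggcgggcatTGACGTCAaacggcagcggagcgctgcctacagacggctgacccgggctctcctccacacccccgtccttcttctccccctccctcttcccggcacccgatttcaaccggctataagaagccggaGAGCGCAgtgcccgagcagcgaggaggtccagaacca
The mature forms of miR-541 follow, with their seeds, bases 2 to 8, in capitals. They lie at chr12:109742422-109742446 (+) and chr12:109742466-109742487 (+), and the array measured their gene without separating the forms.
miR-541-5p: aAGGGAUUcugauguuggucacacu
miR-541-3p: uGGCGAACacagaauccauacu

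Of the lists examined, cytokine and chemokine ligands held the most added increases by number, 7 of 31 tested, against 0.607% of all genes. Of the 31 ligands 16 rose and 1 fell over both genotypes, against 1.65% and 1.04% of all genes. The 7 additions were part of these 16 increases, as 121 of the 328 increases over all genes were additions. The median change of the list was 0.29, against -0.002 over all genes. Within a genotype 6 had risen in C57BL/6 mice (1.34% of all genes) and 9 in the arrays labelled TNF knockout (0.537%).

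Cxcl2, which draws neutrophils through the receptor Cxcr2, read 4.14, 4.06, 4.52 and 4.11 in naive C57BL/6 mice and 4.42, 5.10, 5.64 and 4.46 after stroke. The arrays labelled TNF knockout read 3.88, 3.90, 4.07 and 3.75 naive and 5.04, 4.21, 5.09 and 4.58 after stroke. The lowest stroke arrays of either genotype lay within the naive range of all 8, and 5 of the 8 stroke arrays were above all 8 naive ones. The change was 0.70 in C57BL/6 mice (adjusted p = 0.116) and 0.83 in the other arrays (adjusted p = 0.122), and over both it was 0.76 ± 0.15 (limma, adjusted p = 0.00662). Cxcr2 itself read low, at 2.87 to 3.29 (median 3.15) on the naive arrays and 3.28 to 4.61 (median 3.83) after stroke. Its 7 highest stroke arrays lay above the naive range, and it rose by 0.70 ± 0.15 (adjusted p = 0.0119).

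Growth factors of glia and leukocytes were among the same additions. Csf1, the survival factor of microglia and macrophages, read 6.41 to 6.76 (median 6.57) naive and 6.70 to 6.99 (median 6.86) after stroke, so that the ranges barely overlapped. It rose by 0.29 ± 0.06 (adjusted p = 0.00871), with 0.32 in C57BL/6 mice and 0.26 in the arrays labelled TNF knockout. Il11 and Lif, cytokines that signal through gp130, rose by 0.45 ± 0.10 and 0.37 ± 0.09. Il1a, the alarmin interleukin 1 alpha, rose by 0.54 ± 0.14 with an adjusted p of 0.0443, but it passed in 5 of the 16 fits made with 1 array removed. The only ligand that fell was Cx3cl1, a neuronal chemokine read by microglia, at -0.22 ± 0.06 (adjusted p = 0.0373), and it is named after its value was seen.

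Among receptors and their antagonists 8 of 29 rose and 0 fell, with a median of 0.16. For this and every list below, the shares over all genes were 1.65% higher and 1.04% lower. Il1r2, the decoy receptor of interleukin 1, rose by 0.41 ± 0.08, and Il1rn, its secreted antagonist, by 0.37 ± 0.09. Both brakes on interleukin 1 were thus added by pooling together with Il1a. Il1r2 read 4.34 to 4.95 naive and 4.93 to 5.36 after stroke, a bare overlap. Cxcr4, the receptor of Cxcl12, rose by 0.34 ± 0.09 and passed in 6 of the 16 fits without an array.

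Sensors of damage and microbes were the next group. Of 27 pattern recognition and inflammasome genes 8 rose and 0 fell, 5 of the 8 had passed in neither genotype alone, and the median change was 0.13. Cd14, the co-receptor for bacterial and endogenous ligands of Toll-like receptors, read 4.47 to 5.19 (median 4.71) naive and 5.06 to 6.21 (median 5.26) after stroke. It rose by 0.64 ± 0.13 (adjusted p = 0.00905), by 0.66 in C57BL/6 mice and 0.63 in the arrays labelled TNF knockout. Clec4n, the fungal and damage receptor dectin-2, rose by 0.59 ± 0.13 from a naive median of 3.24 to 3.80. Tlr2 rose by 0.36 ± 0.09 and Casp4, the caspase of the non-canonical inflammasome, by 0.39 ± 0.09. Tlr2 passed in 8 of the 16 fits without an array, and Cd14, Clec4n and Casp4 passed in all 16.

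The oxidase and surface genes of myeloid cells gave some of the largest additions. Cybb, the catalytic subunit of the phagocyte NADPH oxidase, read 4.43, 4.22, 4.81 and 4.25 in naive C57BL/6 mice and 4.56, 5.41, 5.78 and 4.79 after stroke. With the TNF knockout label it read 4.39, 4.35, 4.67 and 4.29 naive and 5.33, 4.82, 5.39 and 5.11 after stroke, where the 2 groups did not overlap. It rose by 0.72 ± 0.14 (adjusted p = 0.00536), with 0.71 and 0.74 in the 2 genotypes. Ms4a4a, a membrane protein of macrophages, rose by 0.56 ± 0.12 and Ptprc, the pan-leukocyte phosphatase CD45, by 0.43 ± 0.10. Over the marker list of activated microglia and macrophages 10 of 20 rose and 0 fell, with a median of 0.44; the mean level of the list was 5.27 to 5.51 naive and 5.75 to 6.22 after stroke.

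A few neutrophil and infiltrating monocyte markers passed, and only when the genotypes were pooled. Of 17 tested, 3 rose, Clec4d, Cxcr2 and Retnlg, and 0 had passed in a single genotype. These 3 were 17.6% of the list, against 1.65% of all genes. Clec4d, a myeloid C-type lectin, read 3.28 to 4.07 (median 3.69) naive and 4.01 to 5.18 (median 4.29) after stroke and rose by 0.75 ± 0.15 (adjusted p = 0.00644). Retnlg, a resistin-like protein of neutrophils, rose by 0.34 ± 0.07 from 4.24 to 4.52 naive to 4.50 to 4.96 after stroke. The list stayed near the bottom of the scale, since 12 of its 17 members had a mean level below the first quartile of all genes. Its mean level was 3.95 to 4.15 on the naive arrays and 3.98 to 4.41 after stroke, which overlap. S100a8, which together with S100a9 is among the most abundant transcripts of neutrophils, changed by 0.37 (adjusted p = 0.0563), S100a9 by 0.07 and the defining surface gene Ly6g by 0.02, and these 3 did not pass. The part of arriving blood cells in the increases of myeloid genes was not tested.

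**Figure D2:**
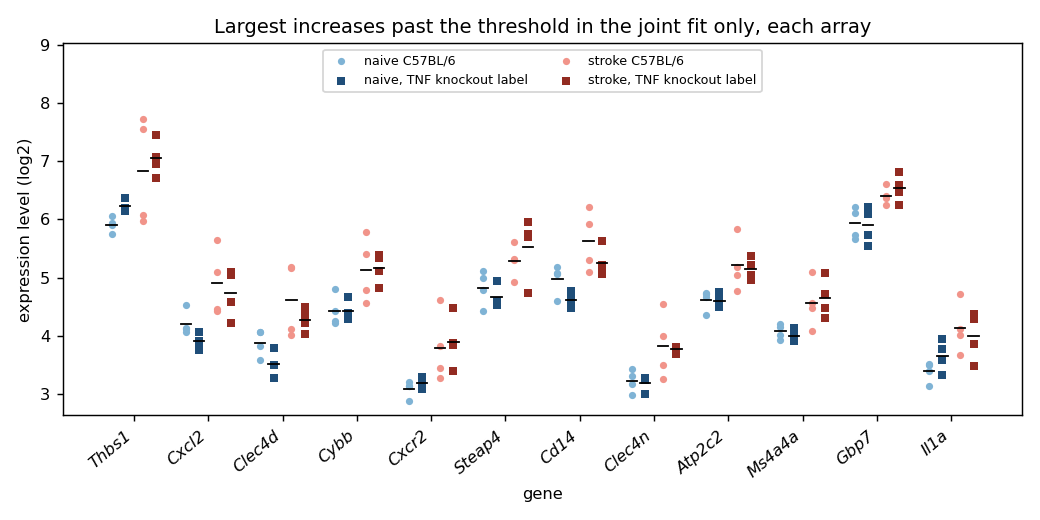
Expression level (log2, y axis) on each array of the 12 named genes with the largest increases among those that passed only in the joint fit; circles are C57BL/6 arrays, squares arrays labelled TNF knockout, blue naive and red stroke, and bars are group means. Atp2c2 and Gbp7 have no overlap between the 8 stroke and the 8 naive arrays, while Thbs1 and Clec4n have stroke arrays within the naive range.

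Some adhesion and matrix genes rose, while most members of both lists did not pass. Thbs1, the matrix protein thrombospondin 1, had the largest change among the named additions, 0.87 ± 0.19 (adjusted p = 0.0154), which did not pass with trended and robust variances (adjusted p = 0.0548). Its C57BL/6 stroke arrays were split, with 7.55 and 7.72 on arrays 2 and 3 and 6.08 and 5.98 on arrays 1 and 4, against 5.75 to 6.06 naive. With the TNF knockout label all 4 stroke arrays, at 6.72 to 7.46, were above the naive 6.14 to 6.37. Icam1, the endothelial ligand of leukocyte integrins, rose by 0.39 ± 0.08 (adjusted p = 0.00761) from 5.95 to 6.43 naive to 6.37 to 6.92 after stroke. Mmp12, macrophage elastase, rose by 0.50 ± 0.10. Of 31 matrix, protease and wound genes 12 rose and 0 fell, against 1.65% and 1.04% of all genes, with a median of 0.17. Of 32 integrin, adhesion and actin genes 6 rose, with a median of 0.09. The actin genes Capg and Cnn3, at 0.25 ± 0.06 and 0.22 ± 0.06, were the small additions to that list, in which 0 genes had passed in the arrays labelled TNF knockout and 4 in C57BL/6 mice.

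Pooling added few interferon-stimulated genes. Of 25 tested, 14 rose over both genotypes and 0 fell, against 1.65% and 1.04% of all genes, with a median of 0.40. Of the 25, 14 had passed in the arrays labelled TNF knockout and 2 in C57BL/6 mice. The stroke change of Ifit1 was 0.99 in C57BL/6 mice and 1.71 in the other arrays, a difference of 0.71 ± 0.33, and no gene passed the test of that difference. The additions were Ifit2, which binds foreign RNA, at 0.46 ± 0.11, and Xaf1, at 0.35 ± 0.09. Gbp7, an interferon-induced GTPase outside that list, read 5.55 to 6.22 (median 5.92) naive and 6.24 to 6.81 (median 6.44) after stroke, a complete separation of 8 from 8 arrays. It rose by 0.55 ± 0.11 (adjusted p = 0.00532), by 0.47 in C57BL/6 mice and 0.63 in the other arrays. Antigen presentation followed with 3 of 16 higher and a median of 0.17, of which H2-Aa, a class II chain, rose by 0.42 ± 0.11 and Tapbp, the peptide-loading chaperone tapasin, by 0.21 ± 0.06. H2-Aa passed in 5 and Tapbp in 3 of the 16 fits without an array. Of 18 complement genes 5 rose, among them the added Serping1, the C1 inhibitor, by 0.37 ± 0.07.

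Pooling added a few members to several stress and metabolic lists. Hspa1a, the inducible HSP70, read 6.48 to 7.13 (median 6.78) naive and 7.01 to 7.47 (median 7.20) after stroke and rose by 0.40 ± 0.08 (adjusted p = 0.00582). It was 1 of 2 heat shock chaperones of 18 that rose. The median of that list was 0.12, with 0.20 in C57BL/6 mice and -0.02 in the arrays labelled TNF knockout. Slc7a11, the cystine importer that feeds glutathione synthesis, rose by 0.32 ± 0.07, and the metallothionein Mt1 by 0.34 ± 0.09, in a list of oxidative stress, metallothionein and iron genes in which 7 of 23 rose. Mt1 passed in 5 of the 16 fits without an array. Of 21 hypoxia and glycolysis genes 3 rose, against 1.65% of all genes, with a median of 0.08. Adm, the vasodilator peptide adrenomedullin, rose by 0.39 ± 0.08, and Slc2a1, the glucose transporter of the blood-brain barrier, by 0.28 ± 0.07 from levels of 9.50 to 9.97. Gadd45b, a growth arrest and DNA damage gene, rose by 0.40 ± 0.08 with 7 of 8 stroke arrays above all naive ones. Of 23 genes of the unfolded protein and integrated stress response 0 passed, with a median of 0.03. Of 22 proteasome genes 0 passed, with 0.07, and of 26 respiratory chain genes 0, with 0.04. Counts of 0 in lists of this size are near the 2.68% of all genes that passed.

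Steap4, a metalloreductase of reactive astrocytes, read 4.42 to 5.11 (median 4.69) naive and 4.74 to 5.95 (median 5.46) after stroke and rose by 0.67 ± 0.15 (adjusted p = 0.0147). It was the only addition among the reactive astrocyte markers, of which 15 of 22 rose, with a median of 0.62. Serpina3n, a protease inhibitor of that list, passed in both genotypes and read 7.41 to 8.06 naive and 8.74 to 10.19 after stroke. Atp2c2, a calcium and manganese pump of the secretory pathway, read 4.35 to 4.75 naive and 4.77 to 5.84 after stroke, without overlap, and rose by 0.57 ± 0.11 (adjusted p = 0.00552). Plin4, a lipid droplet protein that glucocorticoids induce, rose by 0.45 ± 0.12 and passed in 4 of the 16 fits without an array.

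Of the immediate early and MAP kinase feedback genes 5 of 32 rose and 2 fell, with a median of -0.04. Fosl1, which encodes the AP-1 subunit Fra-1, read 4.49 to 4.73 (median 4.62) naive and no lower than 4.80 (median 4.93) after stroke. This complete separation rested on a small change of 0.29 ± 0.05 (adjusted p = 0.00271), 0.28 and 0.30 in the 2 genotypes. Ier3, an early response gene that limits cell death, rose by 0.40 ± 0.09. The nucleolar Nop14, required for making the small ribosomal subunit, also separated the 8 stroke arrays, at 8.27 to 8.56, from the naive ones, at 8.08 to 8.26, with a change of 0.23 ± 0.06. Pcna, the sliding clamp of DNA polymerase, rose by 0.23 ± 0.06, and it was the only 1 of 23 cell cycle genes that passed.

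Egr1, a transcription factor that neuronal activity induces, was the largest named decrease that pooling added. It read 8.22, 8.11, 8.43 and 8.63 in naive C57BL/6 mice and 7.60, 8.06, 7.72 and 7.75 after stroke. With the TNF knockout label it read 8.20, 8.07, 8.08 and 7.28 naive and 7.38, 7.58, 7.54 and 7.27 after stroke. The C57BL/6 groups did not overlap, and 1 naive array of the TNF knockout label, number 4, lay within the stroke range. Over both genotypes Egr1 changed by -0.52 ± 0.11 (limma, adjusted p = 0.0134). The arrays labelled TNF knockout carry 2 sample name prefixes whose meaning the labels do not give. Within the prefix KL76 the change was -0.74 and within KL82, whose only naive array is number 4, it was 0.18; with the prefix as a term in place of genotype the adjusted p was 0.0515.

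Genes of the postsynaptic density were among the decreases. Of 25 glutamate receptor and postsynaptic genes 4 fell and 0 rose, 16% against 1.04% of all genes, with a median of -0.14. Dlgap3, a scaffold that ties PSD-95 to Shank proteins and is abundant in the striatum, read 8.66 to 9.37 (median 8.99) naive and 8.38 to 8.81 (median 8.57) after stroke. It changed by -0.41 ± 0.08 (adjusted p = 0.00944), by -0.42 in C57BL/6 mice and -0.39 in the other arrays. Shank3, the master scaffold that binds Dlgap3, changed by -0.42 ± 0.10 (adjusted p = 0.0218) and passed in 12 of the 16 fits without an array. Camkk2, a calcium/calmodulin-dependent kinase kinase, had already passed in both genotypes, at -0.55 ± 0.07, with naive arrays at 8.31 to 8.72 and stroke arrays at 7.87 to 8.14.

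A few release and channel genes fell, while most members of both lists did not pass. Of 22 synaptic vesicle and release genes 3 fell and 0 rose, with a median of -0.07. Unc13a, which primes vesicles for fusion, changed by -0.49 ± 0.06, and its other 2 probe sets gave -0.33 and -0.30. Slc30a3, the zinc transporter of glutamatergic vesicles, changed by -0.45 ± 0.07, and the active zone organiser Rims1, which pooling added, by -0.24 ± 0.06. Of 27 voltage-gated channel genes 4 fell and 0 rose, against 1.04% and 1.65% of all genes. Of the 27 changes 25 were negative, with a median of -0.17, against a median of -0.002 over all genes. The additions there were Kcnc1, the Kv3.1 potassium channel of fast-spiking cells, at -0.23 ± 0.06, and Scn8a, the Nav1.6 sodium channel, at -0.26 ± 0.06. With the prefix as a term their adjusted p rose to 0.0867 and 0.084, and that of Rims1 to 0.0832.

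Few neuronal cell type markers passed, as did few of all genes (2.68%). Of the markers of cortical excitatory, inhibitory and striatal neurons 0 of 15, 0 of 14 and 0 of 12 passed, with medians of -0.07, -0.06 and -0.02. Counts of 0 in lists of this size are near the share of all genes. Among 14 markers of neurons in general Tubb3, a neuronal tubulin, fell, with all 8 stroke arrays, at 8.91 to 9.13, below the naive 9.22 to 9.61. Its change was -0.27 ± 0.06 (adjusted p = 0.0152), and the list had a median of -0.02. Of 14 GABA genes 1 fell, against 1.04% of all genes, with a median of -0.01. Of 25 neuropeptide and modulatory receptor genes only Cartpt fell, a peptide of feeding and reward circuits, at -0.36 ± 0.09 (adjusted p = 0.0243). It read 6.86 to 7.54 naive and 6.57 to 7.14 after stroke.

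**Figure D3:**
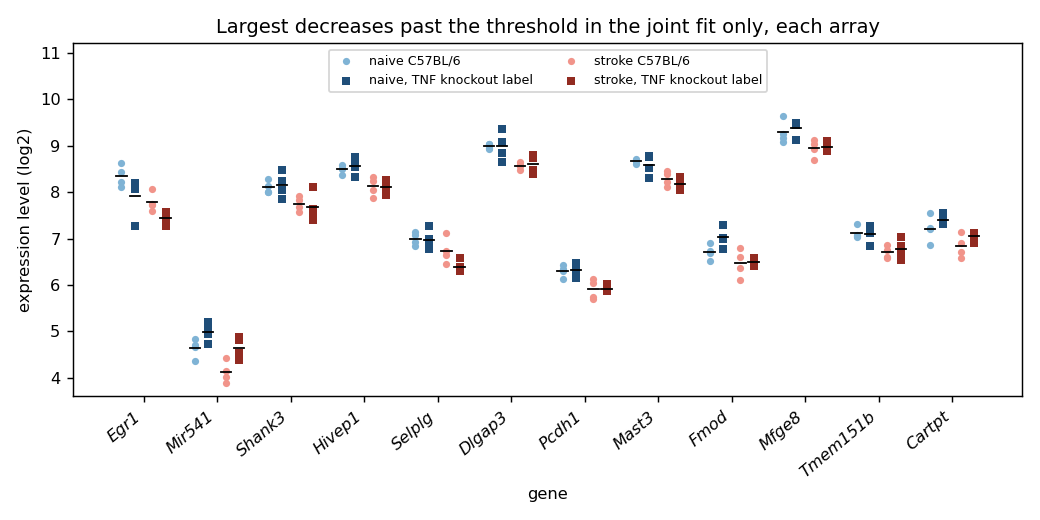
Expression level (log2, y axis) on each array of the 12 named genes with the largest decreases among those that passed only in the joint fit; circles are C57BL/6 arrays, squares arrays labelled TNF knockout, blue naive and red stroke, and bars are group means. Each gene is lower after stroke in both genotypes by the means, while the 8 stroke and 8 naive arrays overlap, and naive array 4 of the TNF knockout label is low for Egr1 and Mfge8.

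Several kinase, adhesion and regulatory genes completed the largest additions on this side. Hivep1, a zinc finger protein that binds NF-kB-like enhancers, read 8.33 to 8.75 (median 8.53) naive and 7.88 to 8.33 (median 8.12) after stroke, touching at 8.33. It changed by -0.41 ± 0.07 (adjusted p = 0.00309), -0.37 and -0.45 in the 2 genotypes. Pcdh1, a protocadherin, changed by -0.40 ± 0.07 (adjusted p = 0.00213) and Mast3, a serine/threonine kinase of striatum and cortex, by -0.40 ± 0.07 (adjusted p = 0.00305). Tmem151b, a transmembrane protein, changed by -0.38 ± 0.08. Mir541, a microRNA gene of the imprinted Dlk1-Dio3 region whose mature forms are printed above, read 4.36 to 5.21 (median 4.79) naive and 3.89 to 4.87 (median 4.41) after stroke. It changed by -0.43 ± 0.10 (adjusted p = 0.0154), by -0.04 within the prefix KL76 and -0.63 within KL82.

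A few microglial and vessel wall markers fell, while most members of those lists did not pass. Siglech, a receptor of homeostatic microglia, read 6.00 to 6.36 naive and 5.42 to 5.92 after stroke and changed by -0.47 ± 0.08 (adjusted p = 0.00117). Selplg, the P-selectin ligand that resting microglia express, was added at -0.41 ± 0.10 (adjusted p = 0.0221), with -0.25 in C57BL/6 mice and -0.56 in the other arrays. Of 11 tested homeostatic microglia markers these 2 fell and 1 rose, with a median of -0.06. That median was 0.12 in C57BL/6 mice and -0.15 in the arrays labelled TNF knockout, so the list had no shared direction. Mfge8, a bridge between dying cells and phagocytes, changed by -0.38 ± 0.08 (adjusted p = 0.0139). Of 16 markers of pericytes, smooth muscle and fibroblasts 2 fell, among them Myh11, smooth muscle myosin, at -0.29 ± 0.08, which passed in 4 of the 16 fits without an array. Of 15 endothelial markers 2 rose and 0 fell, with a median of 0.04. Fmod, a collagen-binding proteoglycan, changed by -0.38 ± 0.09 and passed in 7.

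The largest decreases with separate ranges had each passed within a genotype as well. Pltp, the phospholipid transfer protein, led them, at 9.16 to 9.55 naive, 8.53 to 9.10 after stroke and a change of -0.58 ± 0.08 (adjusted p = 0.000206). Shc3, a neuronal adaptor of receptor tyrosine kinases, changed by -0.52 ± 0.08 (adjusted p = 0.000407) and Hunk, a protein kinase, by -0.45 ± 0.08 (adjusted p = 0.00172). Cadps2 and Rims3, which act in the release of dense-core and synaptic vesicles, changed by -0.42 ± 0.06 and -0.40 ± 0.07. Sema7a, a membrane semaphorin that guides axons, changed by -0.38 ± 0.07. In each of these 6 genes the 8 stroke arrays lay below the 8 naive ones.

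**Figure D4:**
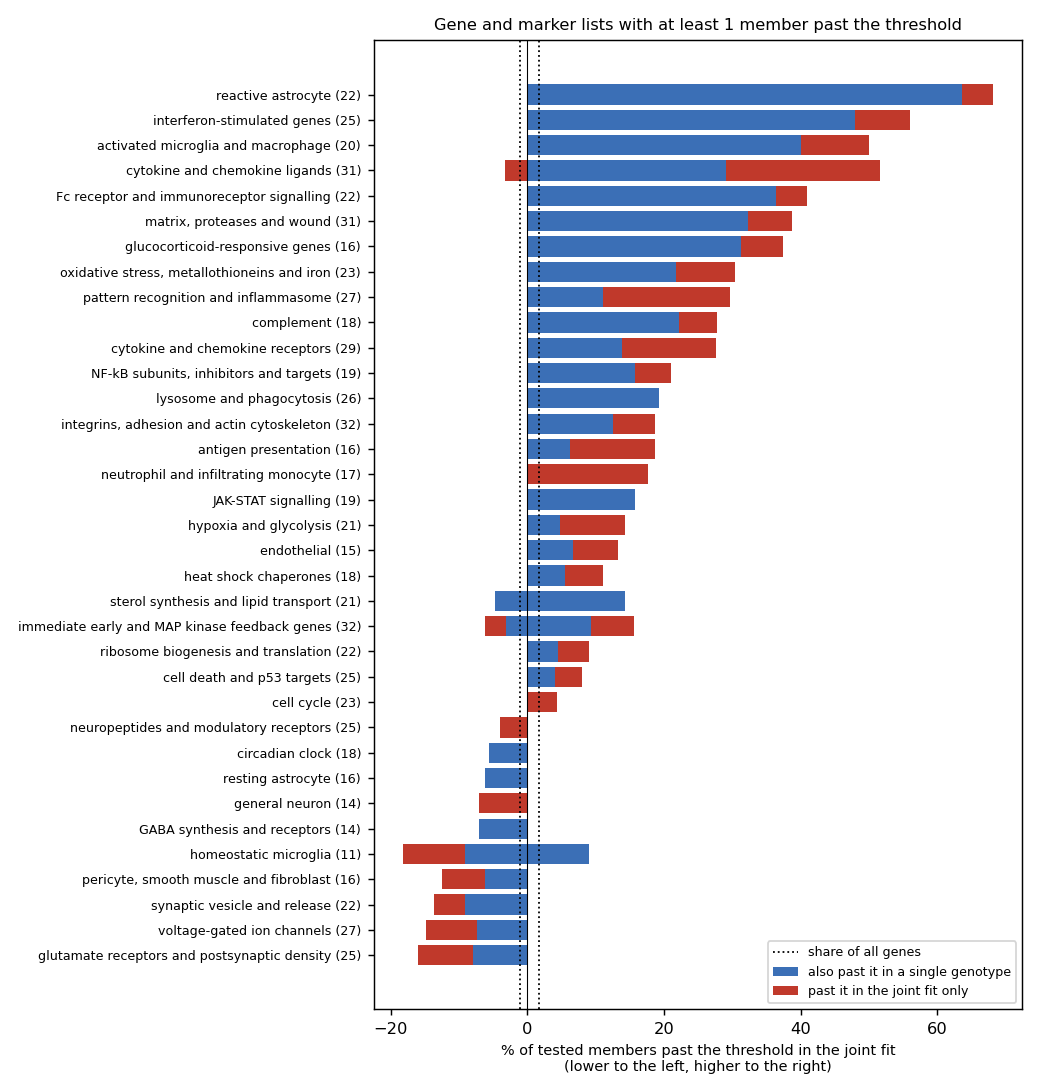
Share of each list's tested members (number in parentheses) that passed the threshold in the joint fit, in percent, with decreases to the left of 0 and increases to the right; red is the part that passed only in the joint fit, blue the part that also passed in a single genotype, and dotted lines mark the shares over all genes, 1.65% higher and 1.04% lower. Reactive astrocyte markers reach 68.2% and interferon-stimulated genes 56.0% on the right, neutrophil and monocyte markers are all red, and glutamate receptor and postsynaptic genes reach 16% on the left.

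Motifs in the 300-base promoters were counted for 15563 tested genes that RefSeq gives one, on both strands. An ISRE occurred in 11 of 104 promoters of the added increases (10.6%), in 4 of 112 of the added decreases (3.57%) and in 3.89% of all. Besides Gbp7 with 1 match and Cybb with 3, Clec4d held one. The NF-kB motif, searched in 2 forms that stand in capitals in Cxcl2 and, on the opposite strand, in Csf1, occurred in 3 promoters of the added increases (2.88%), 0 of the added decreases and 0.315% of all, and Cxcl2 and Csf1 were among the 3. The AP-1 motif TGACTCA occurred in 11.5% of the added increases, 4.46% of the added decreases and 5.39% of all, and Il1a held one. On the other side the cAMP response element TGACGTCA occurred in 6.25% of the added decreases, 1.92% of the added increases and 2.72% of all. The metal response element TGCGCNC occurred in 33.0%, 20.2% and 23.5%, and the E-box CACGTG in 8.04%, 10.6% and 9.52%. The antioxidant response element occurred in 3.57%, 4.81% and 3.26%, and the heat shock element in 0, 0 and 0.565%. Promoters of all increases, added or not, held an ISRE in 11.9%, the NF-kB motif in 1.87% and the AP-1 motif in 10.8%. Those of all decreases held the cAMP response element in 4.52% and the metal response element in 32.9%. All increases and all decreases include the added genes, so these shares do not show whether a motif was particular to the additions. The cAMP response element had 7 matches among all decreases and 7 among the added ones, so none lay outside the additions. Of 5 increases with the NF-kB motif 3 were added. Motif forms can overlap within a promoter, and these shares are descriptions of letters with no test.

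Whether the genotypes differed in their stroke change was tested gene by gene. Of 19938 genes 0 passed (0%), with 1480 (7.42%) at an unadjusted p under 0.05, and the median SE of a difference was 0.141. That 0 passed does not show that the changes were alike. For most of the largest additions the estimated difference was small against its SE: for Thbs1 it was -0.09 ± 0.40, for Cxcl2 0.13 ± 0.31, for Cybb 0.03 ± 0.29 and for Egr1 0.10 ± 0.23. The way the additions were chosen largely fixes this, so it does not measure how alike the genotypes responded. For this difference, 0 of the added increases and 0 of the added decreases had an unadjusted p under 0.05. Among the additions named here, Selplg had -0.31 ± 0.18, Il1a -0.40 ± 0.28 and Steap4 0.41 ± 0.29.

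Pooling also cost calls. Of the genes called in a single genotype 135 did not pass jointly, 109 higher and 26 lower, while 217 of the 334 C57BL/6 calls and 110 of the 128 calls of the TNF knockout label did. Adat2, a subunit of a tRNA deaminase, changed by 0.15 in C57BL/6 mice and by -0.86 with the TNF knockout label (adjusted p = 0.00101), so that its joint change was -0.36 ± 0.14 (adjusted p = 0.211). Its naive arrays of the TNF knockout label read 7.24, 7.57, 7.35 and 6.76, and all 12 other arrays read 6.17 to 6.85. Scrg1, Mtrr, Adgrl4 and the HSP40 co-chaperone gene Dnajb1 had risen in C57BL/6 mice by 0.48, 0.38, 0.46 and 0.42, against -0.01, 0.07, 0.06 and -0.05 in the other arrays. Mx1, an interferon-induced antiviral GTPase, had risen by 0.52 in the arrays labelled TNF knockout against -0.05 in C57BL/6 mice. The joint adjusted p of these genes ran from 0.0504 for Mtrr to 0.236 for Dnajb1.

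The threshold ran through a dense part of the ranking. Just inside it were Fgf2, a growth factor, at 0.23 ± 0.06 (adjusted p = 0.0499), Msrb1, a methionine sulfoxide reductase, at 0.29 ± 0.08 (adjusted p = 0.0499), and Dock6, a Rac and Cdc42 activator, at -0.29 ± 0.08 (adjusted p = 0.0494). Just outside were Olfm1, an olfactomedin of neurons, at -0.21 ± 0.06 (adjusted p = 0.0501), Fzd6, a Wnt receptor, at -0.26 ± 0.07 (adjusted p = 0.0502), and Cdk6, a G1 kinase, at 0.23 ± 0.06 (adjusted p = 0.0502).

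The additions rested on single arrays more often than the other calls, which the way they were chosen largely fixes. Of the 273 added genes 103 passed in all 16 joint fits that left out 1 array and 109 in fewer than 8, while 208 of the other 262 passed in all 16. Without naive array 1 of the TNF knockout label, 159 genes were added by pooling in place of 273, and 115 in place of 207 fell over both genotypes. Decreases numbered 115 to 118 without C57BL/6 stroke array 3 or stroke arrays 3 or 4 of the TNF knockout label, and 132 without naive array 2 of that label. Of the added decreases 75 were left without naive array 1, 83 without stroke array 4 and 85 without stroke array 3 of the TNF knockout label, and 98 without C57BL/6 stroke array 3, in place of 152. In the other direction 387 genes were added without naive array 4 of the TNF knockout label. With the prefix as a term in place of genotype 110 of the 273 still passed, 61 of the 121 increases and 49 of the 152 decreases. All 8 C57BL/6 arrays share the prefix KL42. KL76 holds naive arrays 1 to 3 and stroke array 1 of the TNF knockout label, and KL82 holds naive array 4 and stroke arrays 2 to 4. Of the added genes named above, Steap4, Il1a, Il11, Cxcr4, Ifit2, Xaf1, Capg, Cnn3, Mt1, Nop14 and Pcna among the increases and Egr1, Shank3, Selplg, Mfge8, Fmod, Myh11, Rims1, Kcnc1 and Scn8a among the decreases no longer passed with that term. Their adjusted p-values then ran from 0.0513 for Steap4 and Mfge8 to 0.147 for Myh11. Fewer than 16 fits without an array kept the calls of Nop14 (12), Il1rn, Rims1 and Ifit2 (11 each), Lif (10), Xaf1 and Scn8a (9 each), Kcnc1 (8), Slc2a1 (6), Capg (5), Pcna (4) and Cnn3 (3). Selplg lost its call without C57BL/6 stroke array 3 or stroke array 4 of the TNF knockout label, and Cartpt without C57BL/6 stroke array 2 or 3. In none of these fits did any of the 273 change its sign.

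**Figure D5:**
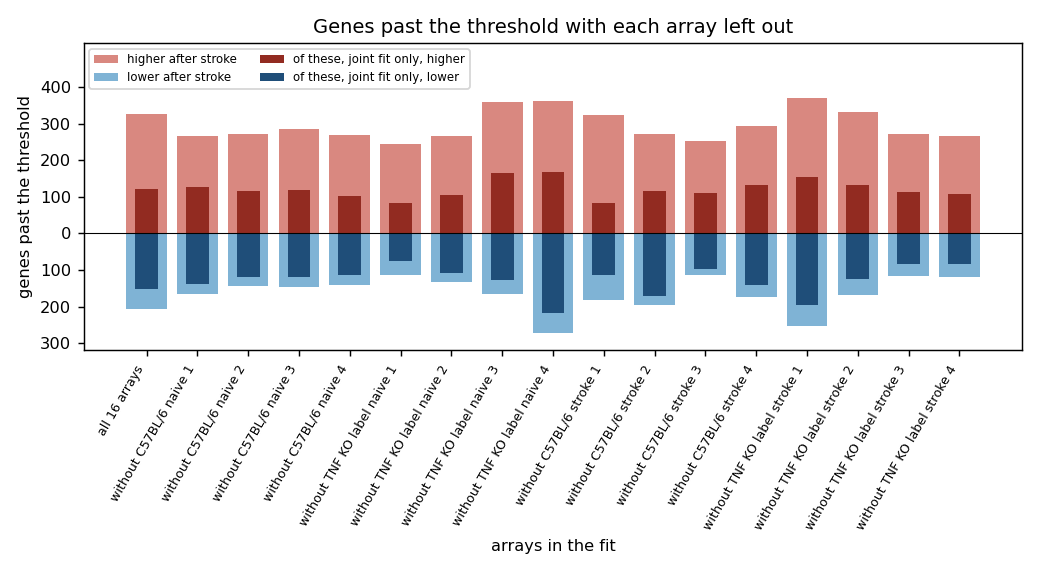
Number of genes past the threshold in the joint fit (y axis; above 0 higher after stroke, below 0 lower) with all 16 arrays and with each array left out (x axis); narrow dark bars are the genes that passed in neither single genotype. Increases stay between 246 and 371, and decreases run from 115 to 272, highest without naive array 4 of the TNF knockout label.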

How the data were processed

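RNA of whole brain was hybridised to 16 arrays in 4 labelled groups of 4. The authors deposited log2 levels per probe set, which they had normalised between arrays, since array medians were 6.01 to 6.05. Trizol extraction and WT terminal labelling are given per the labels' protocols. RMA, GCRMA, GCOS and Partek appear in the submitters' processing notes with neither version nor role, and the probe annotation behind the summaries is not given in the sources used. No other file was used.

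Symbols came from GEO's platform annotation, which can be old: 21789 of 28944 probe sets had 1 symbol, 1621 several and 5534 none. Only the first kind was tested, with the highest mean for the 999 genes that had more than 1, which left 19938 genes and no filter on dim ones. Of these, 19856 matched RefSeq (GRCm38.p6) by gene ID. Arrays of a group correlated at 0.991 to 0.996, 0 pairs were identical, and the number of arrays limits the precision.

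Stroke against naive was fitted with limma 3.58.1 (lmFit, eBayes) in R 4.3.3 with genotype as an additive term, with 13 residual and 7.54 prior degrees of freedom. Single-genotype changes and their difference came from 4 group means (12 residual). Tests were two-sided and adjusted by Benjamini and Hochberg, threshold 0.05. The genes and the 46 lists were chosen with earlier results of these data known, so no list was tested; 921 of 1011 memberships matched a tested gene, and the rest were not analysed here.

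Named genes are Tnf, the 10 largest increases and decreases with separate ranges, the 12 largest of each among genes added by pooling, 3 on each side of the threshold, 6 called in a single genotype only, and up to 4 members with the smallest p, and 4 added members, of each list. Unnamed gene models were left out, among them the largest addition. Genes outside the rule are said to be so, or are markers that define a cell type.

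Alternatives were other normalization or centring, dim genes left out, other choices of probe set, array weights, trended and robust variances, thresholds of 0.01 and 1.5-fold, no genotype term, 4 group means, each genotype alone, the replicate number or the sample name prefix as a term, and each array left out. The fits were checked on simulated data in which 200 of 19938 genes changed in both genotypes. There the joint fit recovered 36% of changes of 0.25 and 96% of changes of 0.5, so it missed most of the smaller ones. Figures were drawn with matplotlib 3.10.9 and tables made with pandas 2.3.3 and numpy 2.4.6, in Python 3.11.15.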

Additional observations from a re-analysis of the deposited data

Results flagged for a closer look

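Within a group of 4 arrays, 21 of 368 groups of values (5.71%) had 1 array far from the other 3; chance alone marks about 1 in 20. Naive array 4 of the TNF knockout label stood apart for 3 of the genes named. Egr1 read 7.28 there against 8.07 to 8.20, Mfge8 9.12 against 9.45 to 9.48, and Ccl3 5.27 against 5.10. Naive array 1 of that label read high for Il11 (5.25 against 4.87 to 4.93) and Il1rn (5.13 against 4.96 to 4.98).

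Among stroke arrays of the TNF knockout label, array 1 read 10.19 for Serpina3n against 9.32 to 9.38 and 5.21 for Il11 against 5.66 to 5.75. Array 2 was low for Lilr4b (5.18 against 5.59 to 5.62) and Clec4n (3.69 against 3.79 to 3.81), and array 4 was high for Mx1 (3.89 against 3.72 to 3.73). Among C57BL/6 stroke arrays, Tnf read 5.28 on array 2 against 5.64 to 5.68, Tlr2 read 5.44 on array 4 against 5.85 to 5.92, and Nop14 read 8.30 on array 1 against 8.46 to 8.49.

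Naive C57BL/6 arrays were set apart for 8 genes. Array 2 was low for Hspa1a (6.48 against 7.03 to 7.13) and Serping1 (6.51 against 6.72 to 6.75) and high for Tmem151b (7.31 against 7.04 to 7.07). Array 1 was low for Sema7a (9.09 against 9.16) and Dnajb1 (7.63 against 7.74 to 7.76). Array 4 was high for Gadd45b (7.46 against 7.28 to 7.30) and low for Adgrl4 (6.70 against 6.76 to 6.77), and array 3 was high for Cxcr4 (6.78 against 6.22 to 6.29).

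Probe sets outside the gene tests also changed. In a joint fit of every probe set, 20 of the 5534 without a symbol rose and 21 fell, and 23 of the 1621 with several symbols rose and 4 fell. These are 0.741% and 1.67% of each kind, against 2.18% of probe sets with 1 symbol.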

How the results depend on the processing

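The joint change of no named gene reversed its sign in the settings compared gene by gene. The balance of the genes added by pooling did reverse. Against 121 higher and 152 lower, it was 82 and 35 at a threshold of 0.01 and 87 and 54 with the prefix as a term. At 1.5-fold it was 9 and 0. Without naive array 1 of the TNF knockout label it was 84 higher and 75 lower, and without its naive array 3 it was 165 and 128. Without its stroke array 2 it was 133 and 124, without array 3 it was 112 and 85, and without array 4 it was 108 and 83. Without C57BL/6 stroke array 3 it was 110 and 98. Of the values of 92 named genes under 24 or 25 alternatives each, 1922 of 2277 kept their side of the threshold, 313 lost it and 42 gained it. The calls over both genotypes (535, 328 higher and 207 lower) became 208, 169 and 39 at a threshold of 0.01 and 79, 78 and 1 when at least 1.5-fold was asked. Decreases became 336 without the third of genes with the lowest mean, 319 with trended and robust variances, 325 with array weights and 92 with the prefix as a term. The 273 genes added by pooling (121 higher, 152 lower) became 117 at 0.01, 9 at 1.5-fold, 427 with array weights and 141 with the prefix; their increases became 9 at 1.5-fold, and their decreases 244 without dim genes, 250 with array weights, 35 at 0.01, 0 at 1.5-fold and 54 with the prefix. Genes whose changes differed between genotypes, 0 of 19938, became 4 with trended and robust variances and 1 with array weights. C57BL/6 calls (334) became 536 without dim genes, 222 over every probe set, 516 with trended and robust variances, 76 at 0.01, 93 at 1.5-fold and 98 in a fit of that genotype alone; calls of the TNF knockout label (128) became 212 with array weights, 54 at 0.01, 76 at 1.5-fold and 72 with the prefix. The stricter rules lower counts by construction and leaving out dim genes shortens the list adjusted over; for the other settings the cause was not tested.

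Leaving out each array in turn gave 361 to 635 calls over both genotypes (246 to 371 higher, 115 to 272 lower) and 159 to 387 added genes (84 to 168 higher, 75 to 219 lower). It gave 0 to 3 differences, 107 to 639 C57BL/6 calls, lowest without stroke array 3 and highest without stroke array 1 of that genotype, and 69 to 145 calls of the TNF knockout label, lowest without its stroke array 4. Deviations from group means correlated at -0.07 to 0.34 (median 0.088) between the 24 pairs of same-numbered arrays and at -0.32 to 0.24 (median -0.040) between the 72 pairs of different number. Since not every same-numbered pair correlated above 0.1 and no label ties the numbers to a shared source, the arrays were treated as unpaired, although 11 of 16 arrays correlated best, on average, with those of their own number, a hint from the data and not from the design. A replicate block gave 669 calls, 323 added genes, 1 difference and 559 C57BL/6 calls. With 4 arrays per group and no detection p-values, the precision of small changes in dim genes is limited.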

Other observations

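Some lists are not described above. Of 26 lysosome and phagocytosis genes 5 rose, with a median of 0.15, and the mean level of the list was 7.61 to 7.81 on the naive and 7.83 to 8.10 on the stroke arrays. Pooling added none of the 5, as with the 3 of 19 JAK-STAT genes that rose, with a median of 0.05. Of 16 glucocorticoid-responsive genes 6 rose, with a median of 0.19, and of 22 Fc receptor and immunoreceptor genes 9 rose, with a median of 0.25. Markers of other cell types held few calls: 0 of 14 oligodendrocyte, 0 of 11 oligodendrocyte precursor, 0 of 12 lymphocyte and 0 of 11 choroid plexus markers passed, with medians of -0.02, 0.03, -0.02 and -0.02. Such counts are near the 2.68% of all genes that passed. The 3 tested red blood cell genes had a median of -0.09, with list means of 4.66 to 5.32 naive and 4.65 to 5.18 after stroke.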
